A study of Mus musculus with 2 samples.

Results

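Ifitm2, Ifitm3, H2-K1, H2-D1, B2m and Bst2 are 6 of the 31053 genes counted in single cells of the newborn mouse dentate gyrus, where the KO and control libraries came from animals with and without conditional deletion of the histone demethylase gene Kdm6b. They were chosen because an earlier reading of these data gave higher values of genes of this kind in knockout radial glia. The KO over control values in that class are therefore given as a description and lend no support to anything else.

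The KO library was made from hGFAP-Cre;Kdm6bF/F mice, in which a human GFAP promoter fragment drives Cre recombinase in radial glia and so also marks their neuronal and glial descendants, and the control library from their littermates, labelled WT. The labels do not say whether the littermates carried the Cre transgene or the floxed allele. Dentate gyri were dissected at postnatal day 2 from 2 animals per genotype, pooled, dissociated with papain and run on a 10x Genomics 3′ assay that tags each captured mRNA with a unique molecular identifier (UMI). Each genotype is thus 1 library, no test between genotypes is possible, and every interval below is an exact 95% interval for counting error only.

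IFITM proteins are small membrane proteins that restrict the fusion of enveloped viruses with endosomal membranes, and Ifitm3 and Ifitm2 are members of the gene cluster that encodes them. H2-K1 and H2-D1 encode the heavy chains of the classical MHC class I molecules, which carry peptides to the cell surface for inspection by CD8 T cells. B2m encodes beta-2 microglobulin, the light chain that class I heavy chains need for stable surface display, and Bst2 encodes tetherin, which holds budding virions at the plasma membrane. All of these genes can be induced by interferons through STAT and IRF transcription factors, and class I genes also through NF-kappaB. In the brain, class I molecules and B2m are best known from endothelial cells and microglia, and neurons express them at lower levels.

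Ifitm2 (chr7:140954837-140955987, minus strand, GRCm38) and Ifitm3 (chr7:141009586-141010770, minus strand) lie 53598 bases apart. H2-K1 (chr17:33996017-34000347, minus strand) and H2-D1 (chr17:35262730-35267499, plus strand) lie in the MHC, B2m is at chr2:122147686-122153083 on the plus strand and Bst2 at chr8:71534255-71537456 on the minus strand. Promoter windows of 300 bases, from 250 before to 50 after the annotated start, were found for all 6 genes in RefSeq (GRCm38.p6). The windows of 4 of them are printed 5′ to 3′ because Ifitm3 and Ifitm2 are neighbours that differed in the data below, while H2-K1 and B2m encode both chains of 1 molecule; capitals mark matches to an interferon-stimulated response element (ISRE, letters GAAANNGAAA) or to the IRF core that it contains (AANNGAAA), on either strand.
Ifitm3, chr7:141010695-141010994 (- strand): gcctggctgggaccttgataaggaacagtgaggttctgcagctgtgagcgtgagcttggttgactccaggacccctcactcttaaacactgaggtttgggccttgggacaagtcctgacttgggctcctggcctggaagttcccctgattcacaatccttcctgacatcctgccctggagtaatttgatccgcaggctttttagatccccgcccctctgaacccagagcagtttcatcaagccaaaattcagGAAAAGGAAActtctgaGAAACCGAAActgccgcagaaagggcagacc
Ifitm2, chr7:140955912-140956211 (- strand): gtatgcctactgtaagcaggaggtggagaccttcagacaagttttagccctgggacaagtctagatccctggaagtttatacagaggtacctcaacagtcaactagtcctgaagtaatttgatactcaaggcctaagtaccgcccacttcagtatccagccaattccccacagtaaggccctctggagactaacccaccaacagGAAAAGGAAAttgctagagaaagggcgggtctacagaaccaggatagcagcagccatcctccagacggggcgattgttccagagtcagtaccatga
H2-K1, chr17:34000298-34000597 (- strand): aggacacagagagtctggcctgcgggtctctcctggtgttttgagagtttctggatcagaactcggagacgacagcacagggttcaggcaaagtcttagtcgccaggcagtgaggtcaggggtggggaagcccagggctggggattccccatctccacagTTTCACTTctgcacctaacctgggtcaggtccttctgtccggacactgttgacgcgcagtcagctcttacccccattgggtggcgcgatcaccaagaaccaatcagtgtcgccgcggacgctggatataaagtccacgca
B2m, chr2:122147437-122147736 (+ strand): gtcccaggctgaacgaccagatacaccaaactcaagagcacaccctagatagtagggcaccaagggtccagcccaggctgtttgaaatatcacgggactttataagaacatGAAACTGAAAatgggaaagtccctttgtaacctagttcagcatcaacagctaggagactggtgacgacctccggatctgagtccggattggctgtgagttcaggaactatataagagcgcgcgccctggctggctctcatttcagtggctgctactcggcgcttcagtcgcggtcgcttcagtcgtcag

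Ifitm3 holds 2 ISRE matches, GAAAAGGAAA and GAAACCGAAA, beginning at bases 3 and 20 of the transcript, and Ifitm2 holds the match GAAAAGGAAA once, beginning 46 bases before its start. B2m has 1 match and Bst2 has 2, so 4 of the 6 windows held an ISRE, against 3.44% of 32851 mouse promoter windows. H2-K1 and H2-D1 have no ISRE match but share the IRF core on the minus strand (TTTCACTT as printed), which 23.9% of all windows hold. Both also hold GGGGATTCCCC, a match to a kappaB-type motif (GGGNNNNNCCC) found in 14.0% of windows, and B2m holds GGGAAAGTCCC. A GAS-type motif (TTCNNNGAA, in 8.30% of windows) was found in Ifitm3 and Bst2. The H2-K1 and H2-D1 windows were 89.5% identical over 239 aligned bases, and those of Ifitm2 and Ifitm3 53.7% over 281. These matches describe letters in a fixed window and are not evidence of binding.

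Because the assay reads the 3′ end, reads of related genes can be confused where their ends share sequence. Among 50-base windows in the last 400 bases of the transcript, 12.3% of those of Ifitm3 also occurred in another gene (Gm7676 or Ifitm1), and 25.4% of those of Ifitm2 occurred in 6 other genes, none of them another Ifitm gene. H2-K1 shared 0.57% with H2-D1, H2-D1 shared 12.3% with 80 genes that include H2-K1, and B2m and Bst2 shared none. Ifitm2 overlaps the predicted gene Gm45717 on the same strand, so counts of Ifitm2 depend on how reads there were assigned.

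After filtering, 1931 KO and 2957 control cells were kept, with medians of 9267 and 7342 UMIs. The libraries differed in ways that genotype does not define. Cells with Y-linked UMIs and no Xist made up 0% of the KO and 33.3% of the control cells, so the libraries differ in the sex of the animals, and 9 barcodes occurred in both. Endothelial-like cells were 10.2% of the KO and 6.66% of the control cells. Ependymal-like cells numbered 158 and 88, and mural-like cells 53 and 15, although the KO library held fewer cells. Both classes had high Ifitm3 levels, given below. The part of these differences in the results was not tested beyond the values given beside them. Kdm6b itself had 119 UMIs in KO and 139 in control radial glia-like cells, the class named below from radial glia and neural stem cell markers (ratio interval 0.880 to 1.46), a 3′ count that can lie outside the deleted part and so checks nothing. Prm1, a protamine gene of sperm, had 5755 and 1 UMIs in the same cells and 27 and 0 in endothelial-like cells, and so set the KO radial glia apart from the control ones. Astrocyte-like cells held 3488 and 0 Prm1 UMIs. These counts cannot tell transcripts of the Prm1 gene itself from other transcripts that share its 3′ sequence, and their source was not tested.

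The 6 genes had distinct patterns over the cell classes, which were named from marker genes (see the plot of levels by class). Among the 12 classes with at least 20 cells in each library, which were put in order of level, Ifitm3 was highest in ependymal-like cells, the ciliated cells that line the ventricles, with 380 UMIs per 1000000 UMIs of the class (CPM) in the KO library (interval 354 to 408) and 303 in the control library (273 to 334). Endothelial-like cells followed at 215 and 297 CPM. Mural-like cells, the pericytes and smooth muscle of vessels, reached 910 and 647 CPM, though from 53 and 15 cells. Ifitm3 was close to absent from the neuronal lineage, with 1 UMI in each library in neuroblast-like cells, 18 and 20 in pyramidal neuron-like cells and 0 in Cajal-Retzius cell-like cells, where a count of 0 allows up to 8.50 and 2.56 CPM, taken as 3 counts of the class total. Radial glia-like cells, the progenitors that express markers such as Gfap and Sox2, took rank 4 of the 12 ordered classes in the KO library at 159 CPM, with an interval (142 to 176) that overlapped those of the classes on either side. In the control library they took rank 6 at 35.1 CPM, and their upper bound of 42.7 lay just under the lower bound of 42.9 for astrocyte-like cells (54.0 CPM).

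**Figure D1:**
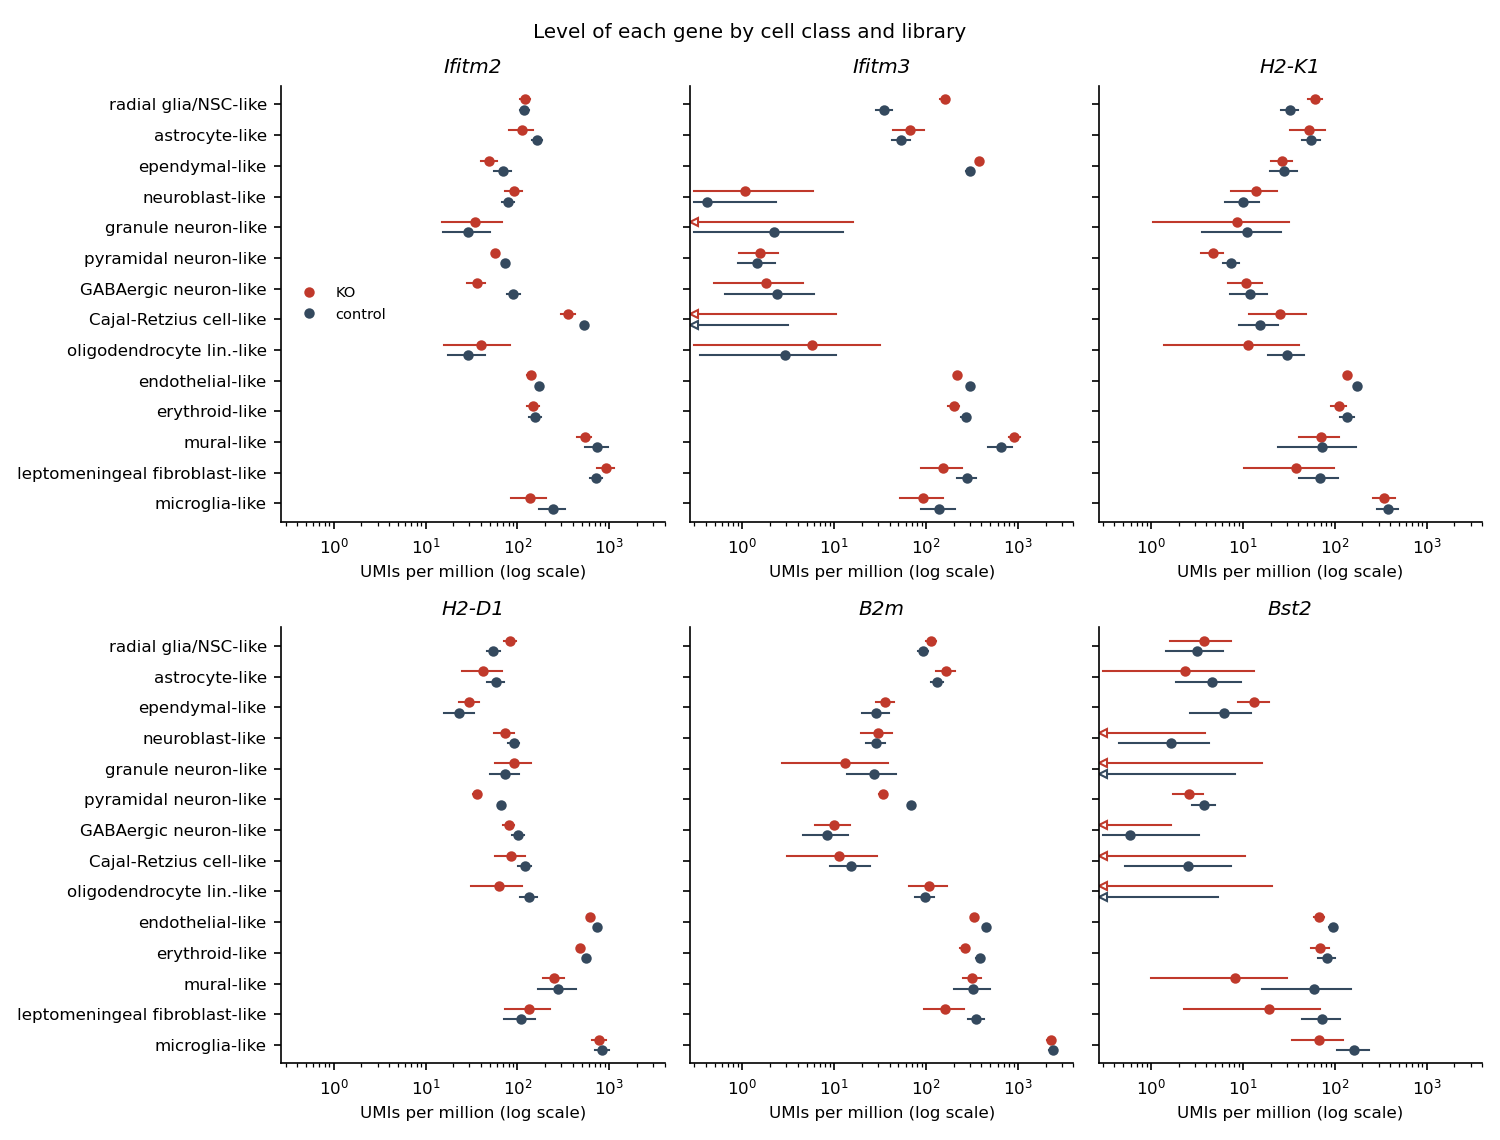
Level in CPM (log scale) of the 6 genes in 14 cell classes, KO above control in each row; points are the summed level of a class in 1 library, lines exact Poisson 95% intervals, and open triangles a count of 0. Ifitm3 spans from 0 UMIs in Cajal-Retzius cell-like cells to 910 CPM in KO mural-like cells, while H2-K1 and B2m peak in microglia-like cells.

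Ifitm2, the neighbour of Ifitm3, was distributed otherwise. Its highest level among the 12 ordered classes was in Cajal-Retzius cell-like cells, the reelin-secreting neurons of the marginal zone, with 357 CPM in the KO library (298 to 425) and 530 in the control library (489 to 573), where 0 Ifitm3 UMIs were seen in either library. Leptomeningeal fibroblast-like cells had 916 and 717 CPM of Ifitm2, from 15 and 34 cells. Ifitm2 was also detected in every neuronal class, at 56.6 and 73.9 CPM in pyramidal neuron-like cells, and was low in ependymal-like cells, at 49.5 and 69.8 CPM. Across the 14 classes, with both libraries summed, log2 levels of Ifitm2 and Ifitm3 correlated at r = 0.46.

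The class I genes and Bst2 were led by immune and vascular cells. B2m reached 2281 and 2390 CPM in microglia-like cells, the resident macrophages of the brain, and 330 and 451 CPM in endothelial-like cells, and each of these classes lay above the next with no overlap of intervals in either library. H2-D1 had 779 and 837 CPM in microglia-like and 622 and 738 CPM in endothelial-like cells, and the intervals of these 2 classes overlapped in the control library and were narrowly apart in the KO library. H2-K1 had 346 and 379 CPM in microglia-like cells and 137 and 176 CPM in endothelial-like cells. Bst2 had 68.0 and 163 CPM in microglia-like, 66.7 and 95.4 CPM in endothelial-like and 69.5 and 81.6 CPM in erythroid-like cells, the last a cluster that also shows endothelial markers. Neurons differed between the genes: H2-D1 remained at 80.1 and 102 CPM in GABAergic neuron-like cells, where B2m had 9.90 and 8.33 CPM and H2-K1 10.8 and 11.9 CPM. H2-K1 and B2m had the most similar distributions of any pair of the 6 (r = 0.91 over the 14 classes).

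Among the 10140 genes with at least 500 UMIs, those whose levels over the 14 classes were most like Ifitm3 were 4930523C07Rik (r = 0.97), Slc43a3 (r = 0.97), a nucleobase transporter, and Tspo (r = 0.96), a protein of the outer mitochondrial membrane. H2-K1 was most like Lyn (r = 0.96), a Src family kinase of blood cells, Rel (r = 0.95), an NF-kappaB subunit, and Cyba (r = 0.95), a subunit of the phagocyte oxidase. B2m was most like Unc93b1 (r = 0.94), which escorts nucleic-acid-sensing Toll-like receptors, Lyn (r = 0.94) and Nagpa (r = 0.93). H2-D1 was most like Hhex (r = 0.94), Srgn (r = 0.92) and Lmo2 (r = 0.91), and Bst2 was most like Ifi35 (r = 0.96), an interferon-induced gene, Lgals9 (r = 0.95) and Selenop (r = 0.94). The closest genes to Ifitm2 were less alike, with Ncstn at r = 0.86, Bcap31 at r = 0.83 and Snapc5 at r = 0.82. These correlations are descriptions over classes that share 2 libraries, and carry no test.

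In the radial glia-like class, Ifitm3 and both class I heavy chains were higher in the KO library, B2m slightly so, and Ifitm2 was level. The class held 300 KO and 427 control cells, and 19 of its 20 markers were enriched in it by at least 1.5-fold and seen in at least 10% of its cells. The same markers and limits named its clusters, so this is no independent check. By that rule the astrocyte-like and ependymal-like clusters showed 17 and 14 of the same markers. Ifitm3 had 338 UMIs in KO cells, or 159 CPM, and 99 in control cells, or 35.1 CPM (28.5 to 42.7), which gives 2.17 as the log2 ratio (ratio interval 3.60 to 5.72). H2-K1 had 130 and 92 UMIs, or 61.0 and 32.6 CPM, and lay at 0.90 on the log2 scale (1.42 to 2.47 as a ratio). H2-D1 had 178 and 154 UMIs, or 83.5 and 54.6 CPM, at 0.61 (1.23 to 1.91). B2m had 241 and 260 UMIs, or 113 and 92.1 CPM, at 0.30 (1.03 to 1.47). Ifitm2 had 255 and 336 UMIs, or 120 and 119 CPM, at 0.01 (0.851 to 1.19). Bst2, with 8 and 9 UMIs, fell under the minimum of 20 UMIs over both libraries. Thus 3 of the 5 counted genes were at least 1.5-fold higher and 0 were lower, where 17.9% of the 11222 genes with 20 UMIs were that much higher and 11.4% lower; since the genes were chosen on this contrast, nothing is read from that count.

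The Ifitm3 UMIs came from many cells. Its 338 KO UMIs came from 125 of 300 cells, with 27.5% of them in the 10 richest cells and at most 15 in 1 cell, and its 99 control UMIs from 55 of 427 cells. After thinning every cell to 2000 UMIs, which left out 24 KO and 22 control cells of the class, 20.7% of KO cells (57 of 276; 16.0 to 25.9) and 4.2% of control cells (17 of 405; 2.46 to 6.64) held an Ifitm3 UMI, against 41.7% and 12.9% before thinning. Neuroblast-like cells, in which Ifitm3 was near 0, held one in 0.585% of KO cells (1 of 171) and 0.199% of control cells (1 of 502), with median depths of 4724 and 3829 UMIs against 6438.5 and 5662 in radial glia-like cells. Of the thinned KO cells with an Ifitm3 UMI, 26.3% also held an H2-D1 UMI (15.5 to 39.7), against 11.4% of those without (7.53 to 16.4). For B2m the same shares were 22.8% and 20.5%, for H2-K1 12.3% and 9.13%, and for Ifitm2 22.8% and 19.2%. The intervals overlapped for all 4 genes. In control cells 2 of the 17 with an Ifitm3 UMI held H2-D1.

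The class was made of 4 clusters whose shares differed between the libraries, and the levels of these genes differed between the clusters. Cluster 13, led by Clu, Hes5, Entpd2, Fbln2 and Gfap, held 36% of the KO and 12.2% of the control cells of the class. Cluster 17, led by Gfap, Rspo3, Wls and Krt15, held 23.7% and 5.85%. The mitotic cluster 7 held 24% and 48.9%, and cluster 9, led by Thrsp and Gas1 and with Tfap2c among its leading genes, held 16.3% and 33.0%. The largest cluster of the class was therefore 13 in the KO library and 7 in the control library.

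Ifitm3 was high in clusters 13 and 17 of both libraries and low in clusters 7 and 9 (see the plot of the 4 clusters). In cluster 13 it had 225 KO and 30 control UMIs, or 356 and 146 CPM, which is 1.26 as a log2 ratio (1.66 to 3.70 as a ratio), and after thinning 40.4% of KO and 14.6% of control cells of the cluster held an Ifitm3 UMI. In cluster 17 it had 89 and 33 UMIs, or 188 and 206 CPM, a log2 ratio of -0.14 with an interval on both sides of 1 (0.607 to 1.41). The mitotic cluster 7 had 10 and 33 UMIs, or 13.2 and 17.8 CPM, at -0.38 (0.326 to 1.54). Cluster 9 had 14 and 3 UMIs, or 52.0 and 4.94 CPM, with a ratio interval of 2.93 to 57.1, and 17 UMIs in all, too few for a call. When the KO clusters were given the control library's makeup, the Ifitm3 log2 ratio of the class was 0.69 instead of 2.17, and with the 4 clusters weighted alike it was 0.99.

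**Figure D2:**
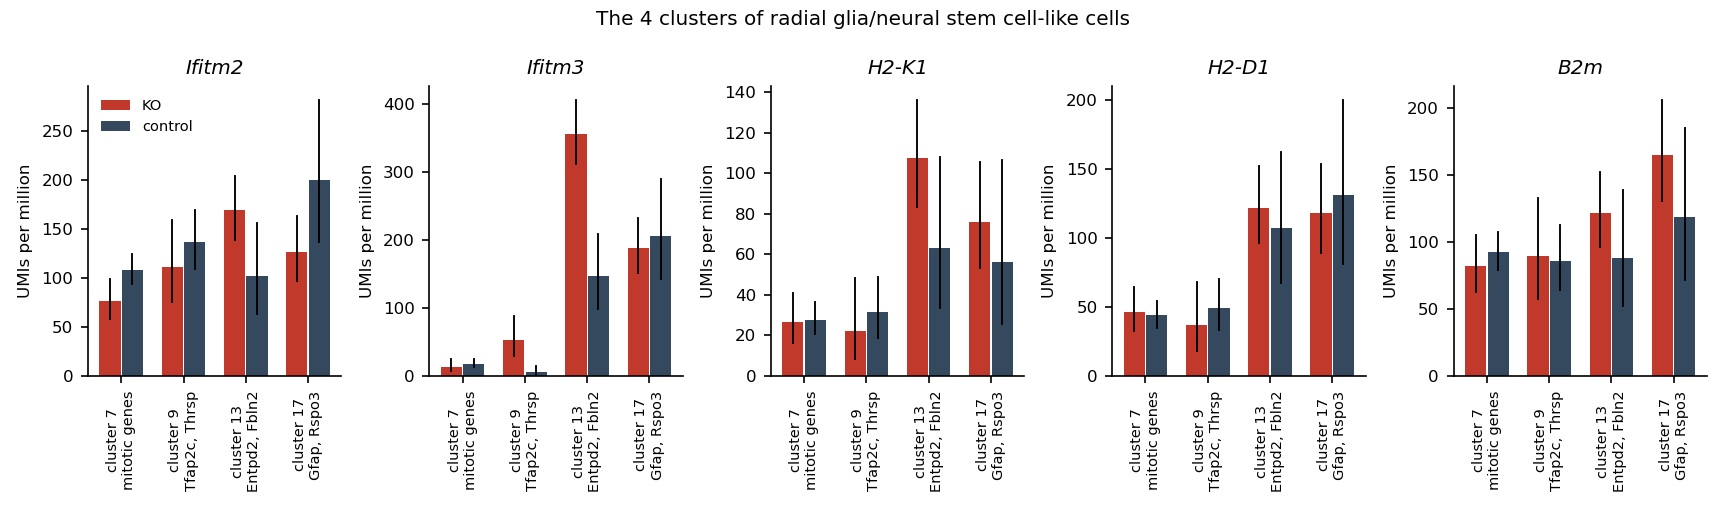
Level in CPM (linear axes from 0) of 5 genes in the 4 radial glia-like clusters, KO bar left of control bar, with exact Poisson 95% intervals; Bst2 is left out for its 17 UMIs. Ifitm3 stands at 356 CPM in KO and 146 CPM in control cells of cluster 13, and at 188 and 206 CPM in cluster 17.

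The Ifitm3 level of cluster 13 was also higher in the KO library when fewer of its cells were taken. Among its cells without any UMI of 18 vascular and immune markers Ifitm3 had 100 KO and 21 control UMIs, a log2 ratio of 0.90 (1.18 to 3.22), and among its cells that had Xist but lacked Y-linked UMIs it had 224 and 28 UMIs, at 0.84 (1.23 to 2.8). Finer or coarser clustering placed its 160 cells together with other cells, so the values that follow are not of cluster 13 alone. At a resolution of 2 the 160 cells fell into a cluster of 116 KO and 63 control cells with 232 and 34 Ifitm3 UMIs, at 1.32 (1.76 to 3.73). At 0.5 they fell into a cluster of 129 and 141 cells with 240 and 30 UMIs, at 2.54 (4.02 to 8.91). Cluster 13 itself had 108 and 52 cells with 225 and 30 UMIs, so the cells added at 0.5 were mostly control cells and brought no control Ifitm3 UMIs. Cluster 17 had the same cells at both resolutions, at -0.14.

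The other genes also had cluster values that departed from those of the class. In cluster 13 Ifitm2 had 107 KO and 21 control UMIs, or 169 and 102 CPM, at 0.70 (1.03 to 2.78), and H2-K1 had 68 and 13 UMIs, or 108 and 63.3 CPM, at 0.72 (0.930 to 3.35). H2-D1 was at 0.16 and B2m at 0.44 there, with intervals on both sides of 1. So 3 of the 5 counted genes were at least 1.5-fold higher in KO cells of cluster 13, where 13.1% of 6244 genes were, again on the contrast that chose them. In cluster 17 Ifitm2 was at -0.66 (0.407 to 1.01), B2m at 0.45, H2-D1 at -0.17 and H2-K1 at 0.38. In cluster 7 Ifitm2 was lower in the KO library, with 58 and 200 UMIs or 76.7 and 108 CPM, at -0.49 (0.520 to 0.954), while B2m was at -0.17, H2-D1 at 0.09 and H2-K1 at -0.039. With the control makeup in both libraries Ifitm2 was at -0.35, B2m at -0.016, H2-D1 at -0.018 and H2-K1 at 0.072. H2-K1 and H2-D1, like Ifitm3, had higher levels in clusters 13 and 17 than in 7 and 9 in both libraries: control H2-D1 had 107 and 131 CPM in clusters 13 and 17, against 43.8 and 49.4 CPM in clusters 7 and 9, with control intervals that overlapped in part.

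Markers of vascular and immune cells had few UMIs in the class. The 18 vascular and immune markers, from Cldn5 of endothelium to C1qa of microglia, summed to 126 KO and 100 control UMIs, or 59.1 and 35.4 CPM, in radial glia-like cells, against 8363 and 8136 CPM in endothelial-like cells, and 5 and 4 of them were at 0. Of these UMIs 35 and 14 were of Kdr, of which 33 and 10 lay in cluster 17, and 33 and 16 were of Pdgfrb, of which 30 and 6 lay in cluster 13. The endothelial markers Flt1, Pecam1 and Cdh5 had at most 3 KO UMIs each. Without Kdr and Pdgfrb, which were singled out after their values were seen, the sums were 58 and 70 UMIs, or 27.2 and 24.8 CPM. At least 1 such UMI was found in 28.3% and 19% of the cells. For every 100 UMIs of Cldn5 the class held 939 and 248 Ifitm3 UMIs, while endothelial-like cells held 3.98 and 5.50. Mural-like cells held 2000 and 629, and ependymal-like cells 4000 and 2294, both above the class. Cldn5 itself had 36 and 40 UMIs in the class, 11 and 7 in mural-like and 20 and 17 in ependymal-like cells. The 18 markers include no ependymal gene, and the part of UMIs from ependymal-like cells was not tested. Among the 215 and 346 cells with none of the 18 markers, Ifitm3 was at a log2 ratio of 1.96. Mitochondrial UMIs were 3.78% and 2.97% of the class, and their part in the result was not tested.

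Endothelial-like cells lie outside the hGFAP-Cre lineage, and there all 6 genes were lower in the KO library, by less than 1.5-fold with all cells summed. Ifitm3 had 808 KO and 1239 control UMIs, or 215 and 297 CPM, at -0.47 (0.661 to 0.791). B2m had 1243 and 1883 UMIs, or 330 and 451 CPM, at -0.45 (0.681 to 0.787), and H2-D1 had 2340 and 3079 UMIs, or 622 and 738 CPM, at -0.25 (0.799 to 0.890). Bst2 had 66.7 and 95.4 CPM, at -0.51 (0.595 to 0.821), H2-K1 was at -0.36 (0.696 to 0.874) and Ifitm2 at -0.29 (0.727 to 0.914). Their median was -0.40, and that of 11042 genes was -0.02, of which 6.35% were at least 1.5-fold lower and none of the 6 was. The share of all genes below a ratio of 1 was not counted. Ifitm3 passed 1.5-fold under 2 alternatives, at -0.65 among endothelial-like cells that had Xist but lacked Y-linked UMIs and at -0.79 with each cell weighted alike, where Ifitm2 was at -0.48 and -0.57.

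**Figure D3:**
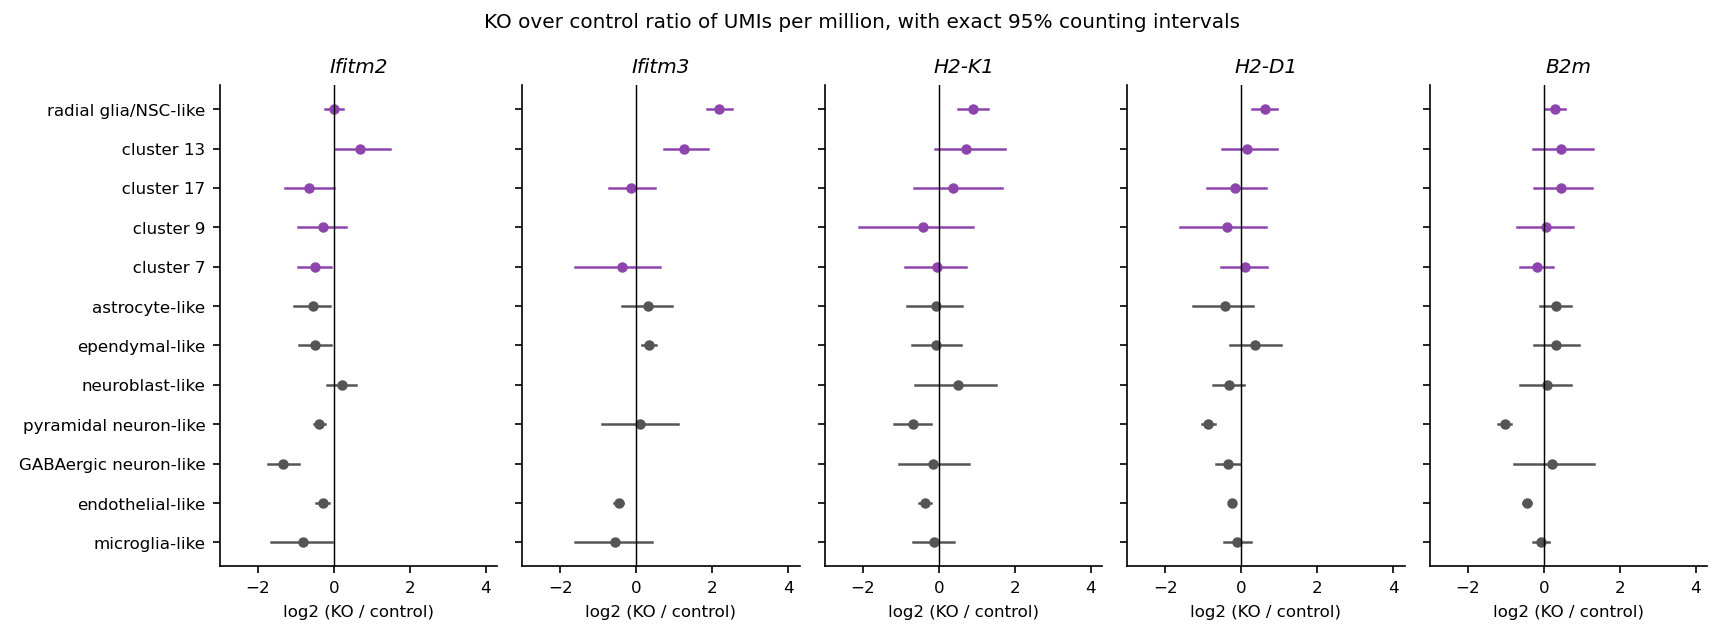
Log2 ratio of KO over control CPM for 5 genes in radial glia-like cells, their 4 clusters (purple) and 7 other classes (grey), with exact 95% counting intervals; rows with fewer than 20 UMIs of the gene are empty. Ifitm3 lies at 2.17 in the class, 1.26 in cluster 13 and, among endothelial-like cells, -0.47, and B2m at -1.02 in pyramidal neuron-like cells.

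Pyramidal neurons, which arise from radial glia, had lower class I values in the KO library. In pyramidal neuron-like cells (622 KO and 805 control cells) B2m had 390 and 943 UMIs, or 33.8 and 68.6 CPM, at -1.02 (0.436 to 0.555), and H2-D1 had 420 and 912 UMIs, or 36.4 and 66.4 CPM, at -0.87 (0.487 to 0.616). H2-K1 had 54 and 103 UMIs, at -0.67 (0.440 to 0.876), and Ifitm2 654 and 1015 UMIs, at -0.38 (0.694 to 0.847). Of the 6 genes 3 were at least 1.5-fold lower, where 7.45% of 12893 genes were. The class held 4 clusters in different shares: H2-D1 was at -0.84 in cluster 0 (116 KO and 373 control cells), -1.32 in cluster 5, -0.33 in cluster 3 and -0.49 in cluster 6, the last 2 with intervals on both sides of 1. B2m was at -0.91, -0.79, -0.18 and 0.29 in the same clusters, and Ifitm2 at -1.03, -0.55, -0.42 and -0.55, each with an interval under 1. The 18 vascular and immune markers summed to 18.9 and 34.2 CPM in these neurons, lower in the KO library too, and their part in the result was not tested. In GABAergic neuron-like cells Ifitm2 had 80 and 152 UMIs, or 36.0 and 90.4 CPM, at -1.33 (0.300 to 0.525), and H2-D1 was at -0.35 (0.631 to 0.970). Cajal-Retzius cell-like cells, at 357 and 530 CPM of Ifitm2, had the lower value in the KO library as well.

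In the other glia and in support cells some of the 6 genes had ratio intervals that excluded 1. Ependymal-like cells had 800 KO and 390 control UMIs of Ifitm3, at 0.33 (1.11 to 1.42). They also had 104 and 90 UMIs of Ifitm2, at -0.499, with an interval under 1. Bst2 had 28 and 8 UMIs there, at 1.04, with an interval on both sides of 1 (0.952 to 5.44). Astrocyte-like cells, the class nearest to radial glia, had 28 and 82 Ifitm3 UMIs, or 66.1 and 54.0 CPM, with a ratio interval of 0.768 to 1.90, and 69 and 200 B2m UMIs, or 163 and 132 CPM (0.928 to 1.64). Ifitm2 had 47 and 249 UMIs there, or 111 and 164 CPM, at -0.55 (0.485 to 0.928), the only one of the 6 in that class with an interval that excluded 1. Oligodendrocyte lineage-like cells had 11 and 92 H2-D1 UMIs, or 62.6 and 132 CPM, at -1.02 (0.228 to 0.886). Microglia-like cells had 369 and 397 B2m UMIs (0.826 to 1.10) and 126 and 139 H2-D1 UMIs (0.726 to 1.19), but 11 and 27 Bst2 UMIs, at -1.22 (0.187 to 0.871), and 22 and 40 Ifitm2 UMIs, at -0.81 (0.320 to 0.973). Leptomeningeal fibroblast-like cells had 17 and 91 B2m UMIs, at -1.08 (0.258 to 0.782), and 16 and 72 Ifitm3 UMIs, at -0.83 (0.299 to 0.955). Mural-like cells had 220 and 44 Ifitm3 UMIs, at 0.48 (1.01 to 1.99). Their Bst2 interval lay under 1, at -2.68, but on 2 and 4 UMIs, too few for a call. The share of all genes with such intervals was not counted in these classes.

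Genes that act with these 6 were read from 7 lists holding 112 genes, of which 108 were in the files and 41 had at least 20 UMIs in radial glia-like cells. Of these 41, 10 (24.4%) were at least 1.5-fold higher and 2 (4.88%) at least 1.5-fold lower in the KO library, beside the 17.9% and 11.4% of all genes, and 29 lay within. Lists of class I partners and of interferon response overlap in kind with the genes that chose the contrast, and no test is attached to these counts. The genes named are the most abundant of each list, and those past 1.5-fold were added after their values were seen.

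Of the 17 other class I and class I-like genes in the files, 5 had enough UMIs and their median log2 ratio was 0.09, against 0.01 over all genes. H2-T22, a nonclassical class I gene, had 31 KO and 17 control UMIs, at 1.25 (ratio interval 1.30 to 4.65). H2-Q4 had 21 and 16 UMIs, at 0.79 (0.864 to 3.56). In no cluster of the class did an interval of either gene exclude 1. Cd1d1, which presents lipids to NKT cells, was lower, with 33 and 77 UMIs, at -0.80, but at -0.083 in cluster 7, which held 19 and 50 of them. In clusters 9, 13 and 17 Cd1d1 was at -1.27, 0.70 and -1.08, and its intervals in all 4 clusters lay on both sides of 1. Mr1, which presents vitamin B metabolites, was at -0.17, and Fcgrt, the neonatal Fc receptor, at 0.09. Of the 14 genes of peptide supply and loading, 9 had enough UMIs, with a median of 0.11. The chaperones of the loading complex lay near 0 in the class, with Calr at -0.17 (785 and 1173 UMIs), Canx at 0.11 and Pdia3 at -0.04, and the proteasome activator Psme2 at 0.39 (221 and 223 UMIs). Tapbp, or tapasin, which bridges class I molecules to the peptide transporter, had 74 and 57 UMIs, at 0.78. The peptide-trimming protease gene Erap1 had 16 and 13 UMIs, at 0.69, with an interval on both sides of 1 (0.735 to 3.68). Within clusters Tapbp was at 0.59 in cluster 13, -0.74 in cluster 7 and -0.53 in cluster 17, each with an interval on both sides of 1, and in cluster 9 it had 0 and 15 UMIs (ratio interval 0 to 0.628). Calr was lower in clusters 7, 9 and 13, at -0.32, -0.36 and -0.42, each with an interval under 1.

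Of the 37 interferon-stimulated genes in the files, 10 had enough UMIs and 10 had 0 UMIs in the class in both libraries, with a median of 0.09 over those counted. Ifi27, an interferon-inducible gene of mitochondrial and nuclear membranes, stood apart with 70 KO and 24 control UMIs, at 1.93. Like Ifitm3 it was found mainly in clusters 13 (31 and 3 UMIs; ratio interval 1.05 to 17.2) and 17 (36 and 18 UMIs; 0.375 to 1.27). Gbp2 was at 0.80 and Tor3a at 0.81, on 21 and 35 UMIs over both libraries, but Gbp2 was at -0.97 in cluster 13 and -0.67 in cluster 17, and Tor3a at 1.04 and -0.12, with intervals on both sides of 1. Ly6e, an interferon-inducible membrane protein gene, was lower with 53 and 115 UMIs, at -0.70, but at 0.00 in cluster 7, which held 35 and 86 of them. The kinase gene Eif2ak2 was at -0.09 and Shisa5 at 0.17. In endothelial-like cells 27 genes of this list had enough UMIs, with 0 at least 1.5-fold higher, 7 lower and a median of -0.26. Over all 11042 genes counted there, 6.35% were that much lower and the median was -0.02. The share of all genes higher there was not counted, and no test is attached.

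**Figure D4:**
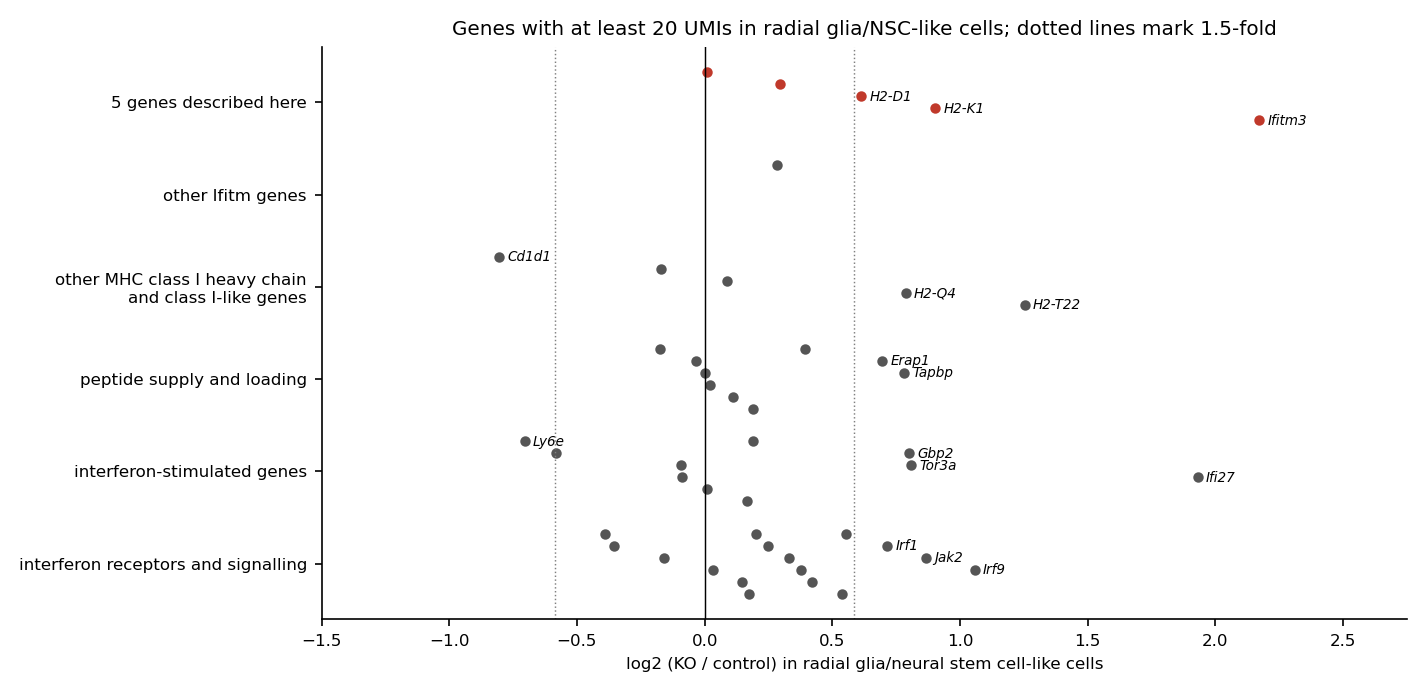
Log2 ratio of KO over control for each gene with at least 20 UMIs in radial glia-like cells, by list, with the genes past 1.5-fold (dotted lines) named; vertical position within a list carries no value. Ifitm3 at 2.17 and Ifi27 at 1.93 lie furthest right, and most interferon-stimulated and loading genes lie between the dotted lines.

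Interferon genes themselves had 0 UMIs in the class in either library, which, at 3 counts of the class total, allows up to 1.41 CPM for each gene in the KO and 1.06 CPM in the control library. Over all cells the files held 5 KO and 4 control UMIs of Ifng, 1 and 0 of Ifnb1 and 2 and 0 of Ifnk. Of 18 receptor and signalling genes 16 had enough UMIs, and their median was 0.29. Irf9, a DNA-binding subunit of an interferon-activated transcription factor complex, had 27 and 17 UMIs, at 1.06, the kinase gene Jak2 58 and 42 UMIs, at 0.87, and Irf1, a transcription factor of class I promoters, 98 and 79 UMIs, at 0.71. Irf1 was not uniform, at 1.01 in cluster 7 (ratio interval 1.10 to 3.62) and -1.27 in cluster 17 (0.241 to 0.729). Irf9 had 9 and 5 UMIs in cluster 7, at 2.08 (1.32 to 16.7). In cluster 17 it had 4 and 6 UMIs, at -2.09 (0.047 to 0.953). Both Irf9 sums lay under the minimum of UMIs and were too few for a call. The most abundant genes were Socs3, a feedback inhibitor, at 0.54 (465 and 424 UMIs), Stat3 at 0.42 (261 and 258 UMIs), Jak1 at 0.14 and Ifngr2 at 0.38. Socs3 was at -0.37 in cluster 7 (0.590 to 0.995), 0.02 in cluster 9, -0.23 in cluster 13 and 0.15 in cluster 17, each below its class value. Stat3 was at 0.14, -0.0014, 0.25 and -0.36 in the same clusters, also each below its class value and with intervals on both sides of 1. Among other Ifitm genes Ifitm10 alone had enough UMIs, with 11 and 12, at 0.29. Receptors of class I molecules had 0 and 2 UMIs in the class.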

How the data were processed

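The deposited files hold UMI counts per gene and cell barcode, written with Cell Ranger 3.0.2, per the submitters' processing notes and, for the version, per the file headers. The submitters' processing notes also name Seurat 3 and the build mm10, with no role given, and other settings are not stated. The 6 genes and all lists were chosen with earlier results of these data known.

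Barcodes numbered 2292 KO and 3555 control. Cells with at least 500 genes, 1000 UMIs and at most 10% mitochondrial UMIs were kept (1967 and 3029). Scrublet's own threshold marked 18 and 11 barcodes (0.785% and 0.309%), under the share at which such a caller can be trusted, and cells were instead removed from the top of its scores at a rate of 0.8% per 1000 barcodes (36 and 72 of the cells kept). With scanpy 1.11.5, cells were clustered on 2000 variable genes, leaving out the genes of the lists, sex-linked genes and protamine genes, with 30 principal components, 15 neighbours and Leiden resolution 1 (leidenalg 0.10.2). The 26 clusters were named from 18 marker lists, and 1 stayed unnamed. Rebuilt names may differ from the authors'.

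UMIs were summed per library and class and divided by the class total, giving CPM. Intervals are exact Poisson (CPM), exact conditional binomial (ratios) and Clopper-Pearson (shares). Log2 ratios add 0.5 UMI to each sum. A gene was counted as higher or lower past 1.5-fold with at least 20 UMIs over both libraries. On counts simulated with Poisson error alone, the ratio intervals held the true value for 95.2% of 1000 genes in radial glia and 95.6% in endothelial cells. The simulation had no variation between cells, animals or libraries, so it checks the calculation and not whether the intervals hold for these data. Named genes are the 6 genes, vascular and immune markers, Kdm6b and Prm1 as checks, the 4 most abundant genes of each list, and for each of the 6 genes the 3 with the highest Pearson r of log2(CPM + 1) over classes. Alternatives changed the cell filter, clustering, weighting of cells and clusters, cells by sex-linked UMIs, scaling and thresholds. Scaling factors for the alternatives came from edgeR 4.0.16 and DESeq2 1.42.0, with no test from either. Not every gene counted in a list's totals is given by value.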

Additional observations from a re-analysis of the deposited data

Results flagged for a closer look

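For 4 genes the KO and control libraries differed in opposite directions in radial glia-like and in endothelial-like cells, with both counting intervals excluding a ratio of 1. The log2 ratio in radial glia-like cells minus that in endothelial-like cells was 2.64 for Ifitm3, 1.26 for H2-K1, 0.86 for H2-D1 and 0.75 for B2m. The difference was not tested, since each genotype is 1 library, and the first of these classes chose the genes. The share of all genes with such opposite ratios was not counted, so nothing is read from the number of genes. With the control cluster makeup in both libraries the radial glia-like values were 0.69 for Ifitm3, 0.072 for H2-K1, -0.018 for H2-D1 and -0.016 for B2m.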

How the results depend on the processing

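The Ifitm3 log2 ratio in radial glia-like cells was 2.17 and lay between 1.96 and 2.32 under 15 alternatives. It was 1.72 with no filter on cells and 1.26 in cluster 13 alone, and it took the other sign in cluster 7 alone (-0.38) and cluster 17 alone (-0.14). It was 0.99 with clusters weighted alike. In alternatives chosen after seeing the data it was 0.69 with the control cluster makeup in both libraries, 1.81 without the mitotic cluster, 2.59 without cluster 17 and 1.51 without cluster 13. H2-K1 took the other sign in cluster 7 (-0.039) and cluster 9 (-0.41), H2-D1 in cluster 9 (-0.37), cluster 17 (-0.17), with clusters weighted alike (-0.070) and with the control makeup (-0.018), and B2m in cluster 7 (-0.17) and with the control makeup (-0.016). The 3 genes at least 1.5-fold higher became 0 in each of clusters 7, 9 and 17 alone, and 1 with clusters weighted alike, with the control makeup or without cluster 13. All 6 genes stayed below a ratio of 1 in endothelial-like cells under the 14 alternatives run there. In the pathway lists, 10 higher and 2 lower genes became 33 and 9 with no minimum of UMIs, and 3 and 0 at 2-fold. With no minimum a single UMI sufficed: 1 KO and 0 control UMIs gave 1.99, and 0 and 1 gave -1.18. The shares of all genes at these 2 settings were not counted, so nothing is read from the changed counts.

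No paired analysis was possible because each genotype is 1 library. Adding unnamed clusters to the class could not be run, since none had mostly radial glia markers. Scaling by TMM or by median ratios moved all genes by under 0.02 on the log2 scale. Bst2 in radial glia, with 17 UMIs, and Ifitm3 in cluster 9, with 17, are limited by depth.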
